A study of Mus musculus with 6 samples.

Results

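The mechanistic target of rapamycin complex 1 (mTORC1) genes described here are Eif4ebp1, Ddit4, Mtor, Rptor, Rragc, Rragd, Depdc5, Flcn, Sesn1 and Sesn3, which were picked by symbol from a gene table of 17666 entries. All 10 were in the table and all 10 passed the filter on low counts, as did 13692 genes in all. The libraries came from mouse chondrocytes, with 3 KO samples, in which Prx1-Cre deleted Ppp1r15b and activated the Rosa26 mT/mG reporter, and 3 WT samples, which carried Prx1-Cre and the same reporter. Per the labels, GFP-positive chondroprogenitors were sorted from knee joints of newborn (P0) mice and cultured in DMEM until they matured, although the series design text names no culture step. Prx1-Cre acts in limb mesenchyme as a whole, so GFP marks its descendants and not chondrocytes alone, and the Cre is present in both groups. Ppp1r15b encodes CReP, a regulatory subunit of the phosphatase that dephosphorylates the translation factor eIF2alpha. The labels do not say whether samples of a group came from separate animals, and p-values therefore cover variation among these 6 libraries, part or all of which may be technical.

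mTORC1 is a kinase complex on the lysosome that promotes protein and lipid synthesis and restrains autophagy when amino acids and growth factors suffice. Amino acids reach it through the Rag GTPases, which recruit it to the lysosome, and the GATOR1 complex switches the Rags off when amino acids are scarce. Stress programmes add brakes to this route, among them the sestrins and DDIT4, and cartilage growth is known to depend on mTORC1.

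Promoter windows are printed for the member with the smallest p (Flcn), for the alternative Rag partners (Rragc and Rragd), and for the Sesn1 transcript that was low in 1 library. They are the 250 bases before a start in RefSeq's annotation on the gene's strand in GRCm38.p6, from which GENCODE transcript starts can differ, 5′ to 3′, and capitals mark the core of the E-box, the only motif match found.
Flcn, chr11:59810040-59810289, minus strand: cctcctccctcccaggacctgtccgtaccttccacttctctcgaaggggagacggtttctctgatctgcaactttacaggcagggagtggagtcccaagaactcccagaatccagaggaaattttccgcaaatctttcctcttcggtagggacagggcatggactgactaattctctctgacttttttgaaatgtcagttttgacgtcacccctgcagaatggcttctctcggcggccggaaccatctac
Rragc, chr4:123917183-123917432, plus strand: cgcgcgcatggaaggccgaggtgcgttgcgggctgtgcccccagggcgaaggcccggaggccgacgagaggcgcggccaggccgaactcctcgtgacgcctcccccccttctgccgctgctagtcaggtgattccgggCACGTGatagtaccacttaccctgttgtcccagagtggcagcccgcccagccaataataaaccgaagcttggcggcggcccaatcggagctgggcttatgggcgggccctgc
Rragd, chr4:32982748-32982997, plus strand: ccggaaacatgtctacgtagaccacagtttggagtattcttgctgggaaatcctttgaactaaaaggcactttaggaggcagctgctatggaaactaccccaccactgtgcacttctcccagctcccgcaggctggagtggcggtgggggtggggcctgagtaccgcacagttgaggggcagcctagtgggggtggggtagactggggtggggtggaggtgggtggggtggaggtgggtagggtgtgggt
Sesn1, chr10:41887189-41887438, plus strand: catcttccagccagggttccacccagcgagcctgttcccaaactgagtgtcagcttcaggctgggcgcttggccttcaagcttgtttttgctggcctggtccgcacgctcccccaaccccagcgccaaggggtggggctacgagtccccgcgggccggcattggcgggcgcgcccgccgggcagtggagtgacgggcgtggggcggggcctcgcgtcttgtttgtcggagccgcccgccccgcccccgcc
RefSeq gave windows for 9 of the 10 members, all but Eif4ebp1, and 10 windows in all, as Sesn1 has a pair of them. Eif4ebp1 was therefore not searched. Searches on both strands used TGATGNAA, the core of the element read by ATF4 with a C/EBP partner, CACGTG, the E-box core read by TFEB and TFE3, and GTAAACA, a forkhead core. CACGTG stood in the Rragc window, 112 bases before the RefSeq start, and the other 9 windows held none of these motifs. Of 32851 windows in the RefSeq table, 6.02% held CACGTG, 3.45% held TGATGNAA and 3.17% held GTAAACA. A match in such a window is a description and not a site of binding.

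Estimated counts came to between 18380880 and 19643951 per library. Ppp1r15b had 355, 428 and 557 counts in KO replicates 1 to 3, against 1707, 960 and 1675 in WT replicates 1 to 3, so it lay lower in each KO library, and WT replicate 2 was the lowest of WT. The deleted exons are not given in the labels. Chondrocyte markers were abundant in every library, with the summed level of 11 genes at 38377, 40049 and 40691 CPM (counts scaled by library size) in KO and 36132 to 48318 CPM in WT. Of these 11, 4 lay higher in every KO library, and Col9a2 and Col11a2 rose (edgeR adjusted p = 0.0496 and 0.0466). KO replicate 3 stood apart from the other KO libraries. Across tested genes its log2 CPM correlated with those of KO replicates 1 and 2 at r = 0.935 and 0.934, while these 2 correlated with each other at 0.993. KO replicates 1 and 2 correlated with the WT libraries at 0.939 to 0.965. KO replicate 3 correlated with WT replicates 1 to 3 at 0.942, 0.951 and 0.944, higher than with either other KO library. Its summed level of 9 fibroblast markers was 4754 CPM, against 16393 and 16739 CPM in KO replicates 1 and 2 and 14995 to 19923 CPM in WT. Of these 9, 3 were lower in every KO library and none was at 0 in all of them. Col1a1 and Col3a1 made up most of the sum, at 2675 and 1351 CPM in KO replicate 3. Only Prg4 of this list was higher there than in KO replicates 1 and 2, at 108.8 CPM against 11.5 and 13.1 CPM. Summed macrophage markers were 14.9, 15.2 and 141.5 CPM in KO replicates 1 to 3, against 188.2 to 351.4 CPM in WT, with 8 of 10 lower in every KO library. Aif1, at 0 in KO, had only 3, 0 and 4 counts in WT and was too low to be tested. Of the 9 macrophage markers tested 1 fell, C1qa (edgeR adjusted p = 0.0152). Skeletal muscle markers summed to 18.8, 18.2 and 263.0 CPM in KO and 97.1 to 749.3 CPM in WT, and 0 of 10 parted the groups. Adipocyte markers summed to 76.6, 77.1 and 120.3 CPM in KO and 496.6 to 960.5 CPM in WT, with 9 of 10 lower in every KO library. Lep, at 0 in KO, was too low to be tested, and of the 9 adipocyte markers tested 8 fell. Osteoblast markers summed to 41.0, 41.8 and 80.1 CPM in KO and 113.8 to 128.7 CPM in WT, with 2 of 6 lower in every KO library, Ibsp and Alpl, which both fell (edgeR adjusted p = 0.0417 and 0.0188). Endothelial markers summed to 11.8 to 12.7 CPM in KO and 12.95 to 16.94 CPM in WT, and 0 of 6 parted the groups. WT replicate 2 also differed from its group. Its muscle sum was 97.1 CPM, against 749.3 and 670.3 CPM in WT replicates 1 and 3. Its macrophage sum was 188.2 CPM (against 351.4 and 349.7) and its adipocyte sum 496.6 CPM (against 960.5 and 848.7). Its chondrocyte and osteoblast sums were the highest of WT. It correlated with WT replicates 1 and 3 at r = 0.982, while these correlated with each other at 0.994. In such bulk samples fewer cells of a type and less RNA per cell cannot be told apart, and the part of these markers in the results below was not tested.

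None of the members passed an adjusted p of 0.05 in the edgeR quasi-likelihood test, which called 2.51% of all tested genes (0.884% higher and 1.63% lower in KO). At an unadjusted p under 0.05 there was 1 member of 10, Flcn, which encodes folliculin, beside 2627 of the 13692 tested genes, a larger share. The DESeq2 Wald test called Flcn higher in KO and no other member, beside 497 genes higher and 674 lower of the 13692 tested. By limma-voom 0 members were called. Estimates were higher in KO for 7 members and lower for 3, with a median log2 fold change of 0.12 beside 0.01 over all tested genes. Without KO replicate 3 the median of the members was 0.0097, beside -0.0001 over all genes tested there, so the upward lean rested on that library. In 3 members (Flcn, Rragc and Rragd) every KO library lay above every WT library, and in 0 members below. Over all tested genes such a gap was found upward in 14.0%, downward in 14.5% and either way in 28.4%. KO replicate 3 was the highest of the 6 libraries in 8 members and the lowest in the other 2, Sesn1 and Sesn3.

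**Figure D1:**
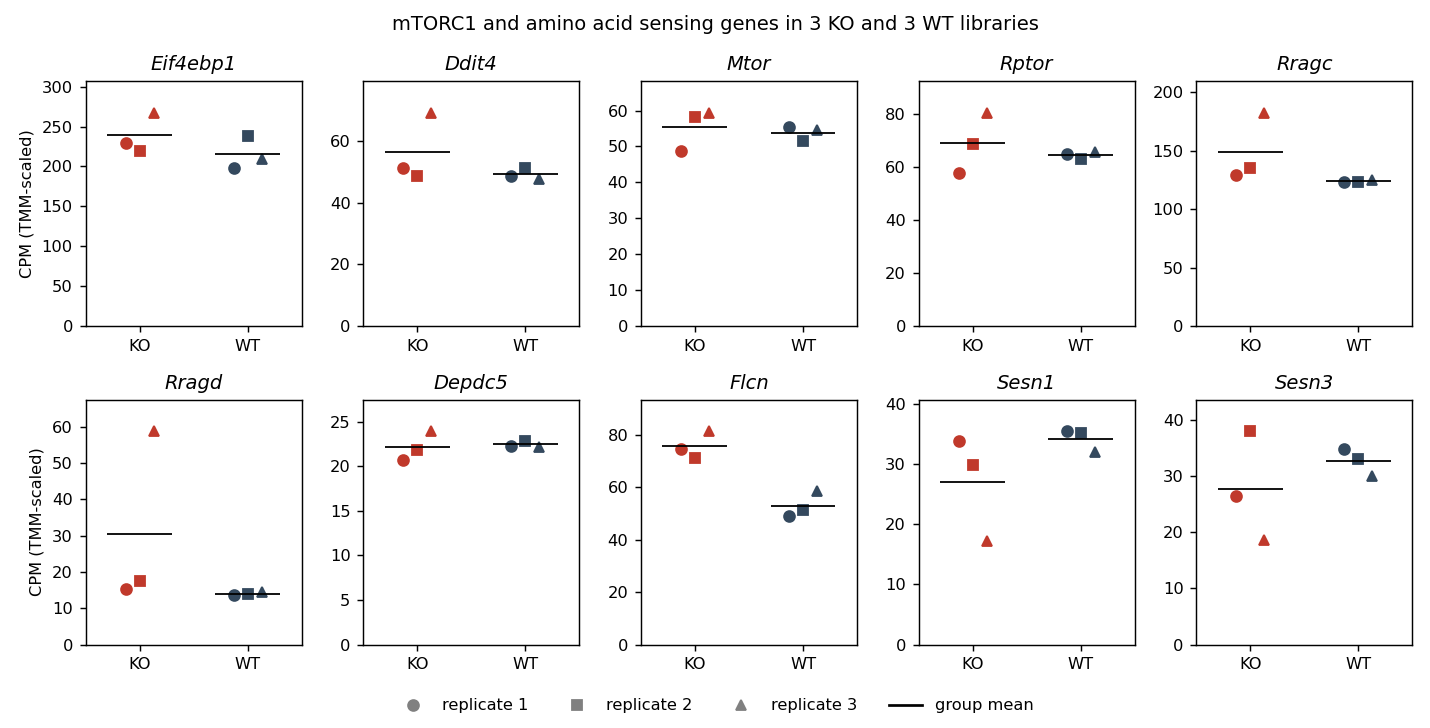
Level of each of the 10 members in CPM (vertical axis, starting at 0, with library sizes scaled by TMM) for KO and WT libraries. Points are libraries, symbols give the replicate number and bars the group mean. Flcn parts the groups with 71.2 to 81.4 CPM in KO and 49.2 to 58.7 CPM in WT, whereas in Rragd the gap rests mainly on KO replicate 3.

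The catalytic kinase subunit gene Mtor (chromosome 4, 148448582 to 148557685, plus strand) had 48.8, 58.2 and 59.3 CPM in KO and 55.5, 51.6 and 54.6 CPM in WT. KO replicate 1 was the lowest library and KO replicate 3 the highest, so the KO libraries enclosed the WT ones. KO over WT gave a log2 fold change of 0.04 (SE 0.0929, 95% interval -0.18 to 0.27, edgeR adjusted p = 0.859). Rptor, which encodes raptor, the scaffold that brings substrates to the kinase (chromosome 11, 119602905 to 119899591, plus strand), showed the same order within KO. It had 57.9, 68.8 and 80.4 CPM in KO and 64.9, 63.2 and 65.5 CPM in WT, a log2 fold change of 0.10 (SE 0.123, 95% interval -0.20 to 0.40, edgeR adjusted p = 0.735). Without KO replicate 3 the estimates of Mtor and Rptor turned to -0.01 and -0.02.

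Among the other subunit and assembly genes 0 of 6 were called. Telo2, part of the chaperone machinery that assembles kinases of this family, had the smallest p of the list. It had 29.7, 29.1 and 28.0 CPM in KO and 20.5, 21.2 and 23.5 CPM in WT, with every KO library above every WT library. Its log2 fold change was 0.41 (SE 0.0857, edgeR adjusted p = 0.0675), and without KO replicate 3 it was called higher in KO at 0.44 (adjusted p = 0.00674). Tti2, its partner, differed by 0.18 (SE 0.0894, edgeR adjusted p = 0.333).

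The Rag GTPases act as pairs, with RagA or RagB bound to RagC or RagD. Rragc (chromosome 4, 123917433 to 123936997, plus strand) encodes RagC and had 128.8, 134.9 and 182.1 CPM in KO, against 123.3, 122.7 and 125.0 CPM in WT. All KO libraries lay above all WT libraries, but KO replicates 1 and 2 by little: their mean was 1.07 times the WT mean, while KO replicate 3 held 1.38 times their mean. On the log2 scale KO differed from WT by 0.27 (SE 0.14, 95% interval -0.07 to 0.60, edgeR adjusted p = 0.367), and 0.10 (SE 0.0551, adjusted p = 0.231) without KO replicate 3.

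Rragd (chromosome 4, 32982998 to 33022180, plus strand) encodes RagD, the alternative partner. It had 15.2, 17.5 and 58.6 CPM in KO, from 280, 320 and 1186 counts, and 13.5, 14.0 and 14.3 CPM in WT. KO replicate 3 held 3.58 times the mean of the other KO libraries, which were themselves just above the WT range. Of all tested genes 93.9% had a smaller gap between KO replicate 3 and the mean of KO replicates 1 and 2, on the log2 scale. The log2 fold change was 1.13 (SE 0.53, 95% interval -0.16 to 2.41, edgeR adjusted p = 0.315). Without KO replicate 3 it was 0.24 (SE 0.0986, 95% interval 0.007 to 0.466, adjusted p = 0.113). That library also had the low fibroblast marker sum and, within KO, the high macrophage and muscle marker sums given above, whose part in the Rragd level was not tested.

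Per length, RagD took 5.68%, 6.22% and 14.1% of the summed RagC and RagD TPM (a level scaled by transcript length and library) in KO, against 5.29%, 5.49% and 5.52% in WT. The KO mean was 8.66 ± 4.70% and the WT mean 5.44 ± 0.126% (SD, n = 3 each; exact permutation test, two-sided, p = 0.1, the smallest that 3 against 3 allows; adjusted p = 0.125 over 5 shares). Without KO replicate 3 the KO mean was 5.95%. RagC was therefore the main member of this pair in every library by RNA level. Of the other paralogs, Rraga averaged 99.1 CPM in KO and 92.9 CPM in WT (log2 fold change 0.09, edgeR adjusted p = 0.492). Rragb had 12.1, 10.4 and 16.8 CPM in KO and 7.93, 8.27 and 9.003 CPM in WT, with no overlap. Its log2 fold change was 0.64 (SE 0.2, edgeR adjusted p = 0.162), and 0.43 without KO replicate 3, where it was called (adjusted p = 0.0367). Of the Ragulator genes, which anchor the Rags to the lysosome, Lamtor3 had the smallest p (0.31, SE 0.125, edgeR adjusted p = 0.248), and 0 of the 8 Rag and Ragulator genes outside the members were called.

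Folliculin, the product of Flcn, acts with FNIP1 or FNIP2 as a GTPase-activating protein for RagC and RagD and is needed for mTORC1 to restrain the transcription factors TFEB and TFE3. Flcn (chromosome 11, 59791408 to 59810039, minus strand) had 74.7, 71.2 and 81.4 CPM in KO, against 49.2, 51.4 and 58.7 CPM in WT. The lowest KO library stood above the highest WT library. The level was 75.8 ± 5.16 CPM in KO and 53.1 ± 4.97 CPM in WT (SD, n = 3 each). Its difference on the log2 scale was 0.51 (SE 0.0942, 95% interval 0.28 to 0.74) and missed the threshold at an edgeR adjusted p of 0.0524. Flcn ranked 372 of 13692 genes by p. Unlike Rragd it did not rest on KO replicate 3: without that library it was called higher in KO at 0.46 (SE 0.0831, adjusted p = 0.00589), in a fit that called 28.5% of genes (12.5% higher and 16.1% lower in KO). Over 15 alternative settings its log2 fold change ran from 0.43 to 0.60, and 3 of them called it (adjusted p from 0.000224 to 0.249). These were the DESeq2 Wald test, the fit without KO replicate 3, and the fit without both KO replicate 3 and WT replicate 2. The last of them called 2416 genes higher and 3000 lower of 13804.

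The genes whose profile over the 6 libraries came nearest to that of Flcn were Hsdl1 and Ctns, among 7950 genes compared. The root mean square difference of centred log2 CPM was 0.0288 for Hsdl1 and 0.046 for Ctns, where Flcn itself spanned 0.72. Ctns encodes cystinosin, the lysosomal cystine exporter. It had 69.7, 66.6 and 79.8 CPM in KO and 48.6, 52.0 and 54.9 CPM in WT, which is 0.47 on the log2 scale (SE 0.0932, edgeR adjusted p = 0.06). Hsdl1 differed by 0.51 (SE 0.135, edgeR adjusted p = 0.118), and the likeness over 6 libraries is a description. The partners of folliculin differed from each other in pattern. Fnip1 had 70.6, 81.2 and 95.6 CPM in KO and 63.7, 61.3 and 63.6 CPM in WT (log2 fold change 0.39, SE 0.117, edgeR adjusted p = 0.15), and was called without KO replicate 3 (0.27, adjusted p = 0.0298). Fnip2 had 40.5, 45.8 and 105.9 CPM in KO and 44.8, 37.8 and 46.5 CPM in WT, so KO replicate 3 alone lay above the WT range. Its log2 fold change was 0.57 (SE 0.375, edgeR adjusted p = 0.466). Of the transcription factors that folliculin controls, 0 of the 3 tested were called. Tfec was too low to be tested.

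**Figure D2:**
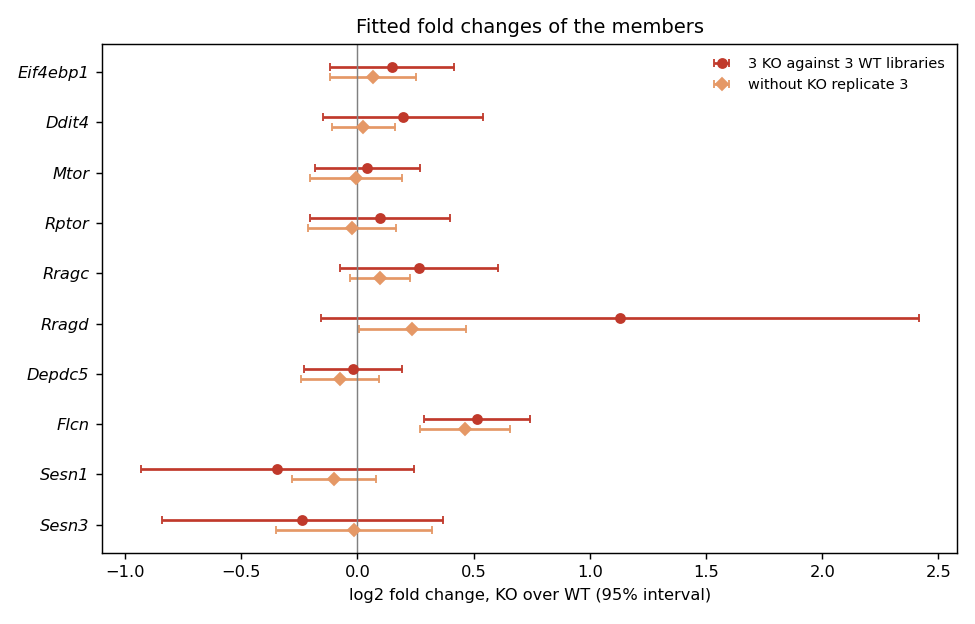
Log2 fold change of KO over WT for each member (horizontal axis) with its 95% interval from the edgeR quasi-likelihood fit. Circles use all 6 libraries and diamonds leave out KO replicate 3. The interval of Flcn lies above 0 in both fits. The Rragd estimate moves from 1.13 with all libraries to 0.24 without KO replicate 3, where its interval lies just above 0.

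Depdc5 (chromosome 5, 32863646 to 32994233, plus strand) encodes a subunit of GATOR1, the complex that acts as a GTPase-activating protein for RagA and RagB. It had 20.7, 21.8 and 23.9 CPM in KO and 22.3, 22.9 and 22.2 CPM in WT. The KO libraries lay on both sides of the WT libraries. KO over WT gave a log2 fold change of -0.02 (SE 0.0867, 95% interval -0.23 to 0.19, edgeR adjusted p = 0.934). Of the other 6 genes of GATOR1 and of KICSTOR, the complex that tethers it to lysosomes, 0 were called. BC048403, a KICSTOR gene, had 13.6, 13.3 and 15.2 CPM in KO and 10.9, 9.90 and 10.9 CPM in WT, with every KO library above every WT library. Its log2 fold change was 0.41 (SE 0.112, edgeR adjusted p = 0.13), and it was called without KO replicate 3, at 0.35 (adjusted p = 0.039). GATOR2, which counters GATOR1, had 0 of 5 genes called, with Sec13 at -0.12 (edgeR adjusted p = 0.455) and Mios at -0.15 (adjusted p = 0.58).

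The sestrins bind GATOR2 and hold it back, and Sestrin2 does so as a leucine sensor. Sesn1 (chromosome 10, 41810574 to 41908436, plus strand) had 33.7, 29.9 and 17.2 CPM in KO and 35.4, 35.2 and 32.0 CPM in WT. KO replicate 3 was the lowest library by far, while KO replicate 1 lay within the WT range. On the log2 scale KO differed from WT by -0.34 (SE 0.242, 95% interval -0.93 to 0.24, edgeR adjusted p = 0.497), and -0.10 (SE 0.0782, adjusted p = 0.371) without KO replicate 3. Sesn3 (chromosome 9, 14276301 to 14326134, plus strand) had 26.5, 38.0 and 18.7 CPM in KO and 34.8, 33.1 and 30.05 CPM in WT. Its KO libraries differed by 2.03 times among themselves and enclosed the WT range, with KO replicate 2 the highest and KO replicate 3 the lowest of all. The log2 fold change was -0.24 (SE 0.249, 95% interval -0.84 to 0.37, edgeR adjusted p = 0.669), and -0.02 (adjusted p = 0.948) without KO replicate 3. The fibroblast marker sum was also lowest in that library, and its part in the Sesn1 and Sesn3 levels was not tested.

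Sesn2, the paralog that is a known ATF4 target, differed from both. It had 94.8, 105.4 and 86.0 CPM in KO and 59.9, 63.7 and 64.7 CPM in WT. The groups did not overlap, and Sesn2 rose by 0.60 (SE 0.0918, edgeR adjusted p = 0.0355). The summed TPM of the 3 sestrins was 133.5, 157.4 and 108.7 in KO and 117.3, 112.8 and 113.1 in WT, so the family total overlapped between groups. The 3 shares sum to the whole and are tied, so a higher Sesn2 level alone lowers the shares of Sesn1 and Sesn3, and they are not separate results. Sesn2 took 59.2%, 58.1% and 68.7% of the sum in KO, against 43.7%, 45.8% and 48.6% in WT. The share of Sesn1 was 16.4 ± 3.78% in KO and 24.4 ± 0.813% in WT, and that of Sesn3 21.6 ± 3.83% in KO and 29.6 ± 1.72% in WT (SD, n = 3 each). Each of these 3 shares gave a two-sided exact permutation p of 0.1, the smallest that 3 against 3 allows (adjusted p = 0.125 over 5 shares). Without KO replicate 3 the KO means were 58.6% for Sesn2, 18.2% for Sesn1 and 23.2% for Sesn3.

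Sesn1 has transcripts from separate starts. In the GENCODE annotation of the same build, one begins at position 41887439 of chromosome 10, just after the printed window, and the other upstream, at position 41809935, which lies before the RefSeq gene start given above. The downstream transcript had 24.2, 22.6 and 9.19 CPM in KO and 25.6, 27.6 and 24.6 in WT. The upstream one had 9.56, 7.25 and 8.02 in KO and 9.77, 7.57 and 7.43 in WT. In these estimates the low Sesn1 level of KO replicate 3 lay in the transcript with the downstream start, while its upstream transcript was within the WT range. The upstream transcript took 28.3%, 24.2% and 46.6% of Sesn1 counts in KO and 27.6%, 21.5% and 23.2% in WT (two-sided exact permutation p = 0.2; adjusted p = 0.7 over 14 transcript shares). A predicted Depdc5 transcript took 22.6%, 29.8% and 43.1% of Depdc5 counts in KO and 0%, 18.3% and 7.01% in WT, with the same limit on p (two-sided exact permutation p = 0.1; adjusted p = 0.7). Transcripts of a gene share exons, so the split is an estimate made by the authors' processing. Such splits could be unsteady between libraries. A Flcn transcript took 7.63% of Flcn counts in KO replicate 1 and 38.5% in KO replicate 2, where the upstream Sesn1 transcript took 28.3% and 24.2% of its gene.

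**Figure D3:**
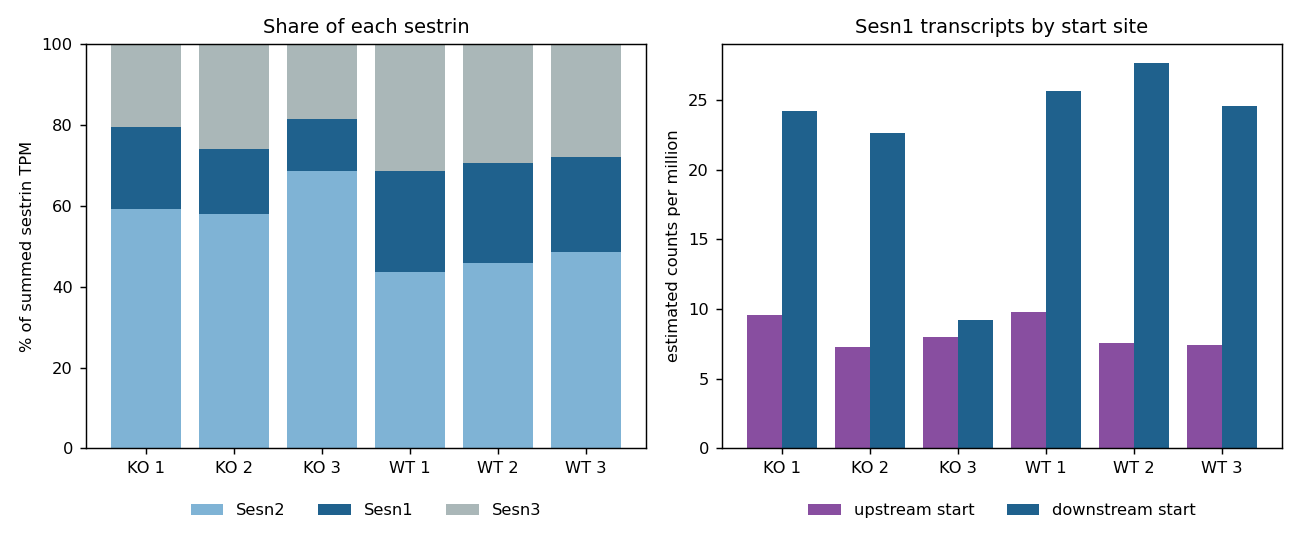
Left, share of each sestrin in the summed sestrin TPM of each library (percent). Right, CPM, from estimated counts, of the upstream-start and downstream-start Sesn1 transcripts. Sesn2 holds 58.1% to 68.7% of the sum in KO and 43.7% to 48.6% in WT, and the downstream Sesn1 transcript is lowest, at 9.19, in KO replicate 3.

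Among the other amino acid sensors, Lars, the cytosolic leucyl-tRNA synthetase that also reports leucine to mTORC1, rose. It had 199.3, 210.2 and 267.5 CPM in KO and 127.5, 144.8 and 125.6 CPM in WT, which is 0.77 on the log2 scale (SE 0.132, edgeR adjusted p = 0.0466). The call was lost with library size as the only scaling, at 0.79 (adjusted p = 0.0519). Of the 5 sensor genes outside the members, 2 rose, 0 fell and 3 were not called.

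Ddit4 encodes REDD1, which is induced by stress and lowers mTORC1 activity through the TSC complex (chromosome 10, 59949675 to 59951770, minus strand). It had 51.2, 48.6 and 69.1 CPM in KO and 48.8, 51.1 and 47.7 CPM in WT. KO replicates 1 and 2 lay close to the WT range and KO replicate 3 above it. KO over WT gave a log2 fold change of 0.20 (SE 0.142, 95% interval -0.15 to 0.54, edgeR adjusted p = 0.513), and 0.03 (SE 0.0581, 95% interval -0.11 to 0.16, adjusted p = 0.776) without KO replicate 3. Its paralog Ddit4l averaged 24.8 CPM in KO and 26.5 CPM in WT (-0.10, edgeR adjusted p = 0.757). Of the TSC, Rheb and REDD genes, 0 of 6 outside the members were called. Tsc1 had an estimate of 0.28 (SE 0.134, edgeR adjusted p = 0.326) and Tbc1d7 one of -0.29 (SE 0.143, adjusted p = 0.331).

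Eif4ebp1 encodes 4E-BP1, a repressor of cap-dependent translation that mTORC1 inactivates by phosphorylation and that ATF4 is known to induce (chromosome 8, 27260327 to 27275656, plus strand). It had 229.7, 219.9 and 267 CPM in KO and 198.3, 238.4 and 209.1 CPM in WT. WT replicate 2 lay above KO replicates 1 and 2, and KO replicate 3 above all others. On the log2 scale KO differed from WT by 0.15 (SE 0.11, 95% interval -0.12 to 0.42, edgeR adjusted p = 0.517), and 0.07 (SE 0.0787, adjusted p = 0.565) without KO replicate 3. Eif4ebp1 took 87.8 ± 1.07% of the summed TPM of the 4E-BP genes in KO and 87.0 ± 1.30% in WT (SD, n = 3 each; exact permutation test, two-sided, p = 0.5 with 0.1 as its lower limit; adjusted p = 0.5 over 5 shares). Its paralogs were lower per length. Eif4ebp2 averaged 66.1 TPM in KO and 64.0 TPM in WT (log2 fold change of counts 0.06, edgeR adjusted p = 0.777), and Eif4ebp3 14.7 TPM in KO and 11.9 TPM in WT (0.27, adjusted p = 0.478).

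Of the 12 other effector genes of mTORC1, 1 rose and 0 fell. Eef2k, the kinase that slows translation elongation and that mTORC1 signalling restrains, had 77.6, 79.7 and 73.7 CPM in KO and 59.5, 56.8 and 56.7 CPM in WT. It rose by 0.42 (SE 0.0634, edgeR adjusted p = 0.0355), and its groups were tight and apart. Lpin1, which encodes the lipin that mTORC1 keeps out of the nucleus and is also an enzyme of fat synthesis, was named after its values were seen, since it lay at the edge of the threshold. It had 31.2, 35.5 and 31.6 CPM in KO and 60.1, 44.6 and 57.2 CPM in WT (log2 fold change -0.72, SE 0.129, edgeR adjusted p = 0.0503), and the adipocyte marker sum was also lower in each KO library. The part of adipocytes in this difference was not tested. Of the 15 growth factor and energy genes 0 were called, the smallest p being those of Prkab1 (0.13, SE 0.0649, edgeR adjusted p = 0.324) and Pdpk1 (0.19, SE 0.0947, adjusted p = 0.338). Of the 4 mTORC2 genes 0 were called, with Mapkap1 at 0.12 (edgeR adjusted p = 0.324) and Rictor at 0.08 (adjusted p = 0.766).

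Over the 10 role lists there were 73 genes outside the members, of which 72 were tested. Sesn2, Lars and Eef2k rose, 0 fell and 69 were not called, beside 0.884% and 1.63% of all tested genes. The median log2 fold change was 0.08. In 20 of the 72 (27.8%) every KO library lay above every WT library and in 4 below, beside 14.0% and 14.5% over all tested genes. The 3 calls held without KO replicate 3 and were lost without any other library, in fits that called 0 genes of all (37 higher and 139 lower without WT replicate 2), with adjusted p from 0.0945 to 0.199 for Sesn2, from 0.093 to 0.236 for Lars and from 0.104 to 0.223 for Eef2k. Without KO replicate 3, 9 of the 72 rose and 1, Lpin1, fell, beside 12.5% and 16.1% of all genes tested there. The share that rose was thus the same as the background in that fit.

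**Figure D4:**
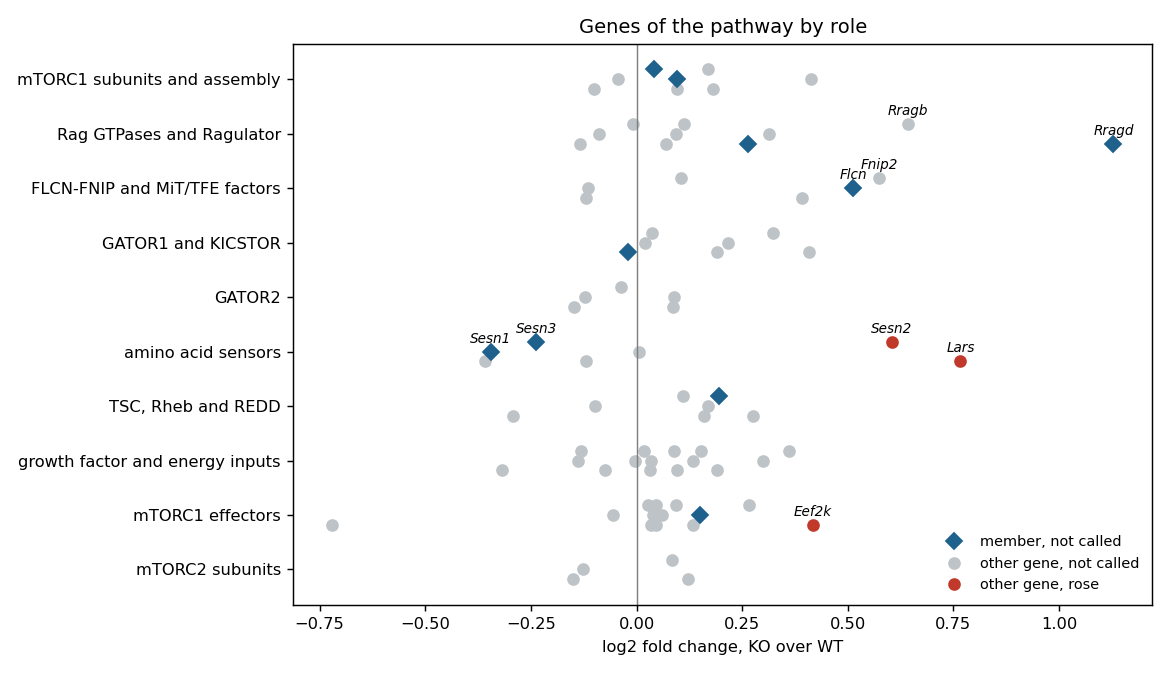
Log2 fold change of KO over WT (horizontal axis) for the tested genes of 10 role lists (rows). Diamonds are the members, circles other genes and red circles those that rose at an adjusted p under 0.05. Sesn2 (0.60), Lars (0.77) and Eef2k (0.42) are red, and Sesn1 and Sesn3 lie on the other side of 0 from Sesn2.

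Per length the members differed widely in level. In WT, Eif4ebp1 was highest at 509.8 ± 33.2 TPM, above 98% of tested genes. Rragc followed at 105.8 ± 3.65 TPM, then Ddit4 at 66.0 ± 0.970, Flcn at 35.2 ± 3.95, Sesn3 at 33.9 ± 2.66, Sesn1 at 27.9 ± 1.36, Rptor at 24.7 ± 0.881, Mtor at 14.8 ± 0.450, Depdc5 at 7.40 ± 0.212 and Rragd at 6.08 ± 0.219 TPM (SD, n = 3). Only Flcn and Sesn3 overlapped as neighbours in this order. In KO, Flcn at 51.3 ± 4.12 TPM was clear of Sesn3 at 29.4 ± 10.5 TPM, and the members from Sesn3 downward each overlapped their next neighbour. Rragd, last of the members in WT, stood above Depdc5 in the KO means through the 26.4 TPM of KO replicate 3.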

How the data were processed

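RNA from 3 KO and 3 WT chondrocyte samples was sequenced in bulk. The authors deposited tables of estimated counts, of TPM and of FPKM, per gene and per transcript, per the file headers. Of the gene counts 12.9% were not whole, and they were rounded. FPKM values deposited by the authors were not used. Per the submitters' processing notes the tools were FastQC, MultiQC, featureCounts 2.0.0 and DESeq2 1.28.1 with build mm10, which equals GRCm38. The tables carry Entrez and RefSeq identifiers, and the program that made the estimated counts is not given in the sources used here. Library totals ran from 18380880 to 19643951 counts.

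The filterByExpr filter (at least 10 counts, total 15) was applied, TMM set the scaling, and genes were tested with edgeR 4.0.16 (quasi-likelihood, R 4.3.3) over 13692 genes, with Benjamini-Hochberg adjustment and a threshold of 0.05. CPM uses TMM-scaled library sizes. Shares were compared by exact permutation tests. DESeq2 1.42.0 and limma 3.58.1 (voom), other scalings and filters, a replicate block and leaving out libraries were alternatives. On data simulated for KO against WT with 13584 genes, the test recovered 44% of 100 genes changed 2-fold and 96% of 100 changed 4-fold, with 8 false calls. Promoter windows are from RefSeq.

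The members and lists were chosen with earlier results of these data known. Named genes were all members, called pathway genes or the 2 with the smallest p of a list with none called, paralogs of members, and the 2 profiles nearest to the member with the smallest p. A gene that this rule names is not reported here.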

Additional observations from a re-analysis of the deposited data

How the results depend on the processing

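The normalization, test and filter alternatives left the direction of every member but Depdc5 in place, at 0.0029 with library size only. The DESeq2 Wald test called 497 genes higher and 674 lower in KO, 1 member (Flcn, higher) and 1 pathway gene lower. A minimum of 1 CPM in all libraries called 148 genes lower. With a replicate block 1 gene rose, 4 fell, and 0 members and 0 pathway genes were called (2057 genes at an unadjusted p under 0.05 in edgeR). Deviations of same-numbered samples from their group means correlated at -0.143, 0.215 and 0.238. KO replicates 2 and 3 and WT replicate 3 correlated best with their own number, and the other libraries did not. Deviations within groups of 3 are tied to each other and cannot settle whether the numbers pair the libraries. With KO replicate 3 and WT replicate 2 both left out, 2416 genes rose and 3000 fell, 1 member (Flcn) and 10 pathway genes rose, and 4 pathway genes fell. The log2 fold change was then -0.042 for Mtor, -0.045 for Rptor, -0.084 for Fnip2, -0.046 for Rictor and -0.0499 for Eif4ebp2, none called. Over the fits without 1 library the uncalled log2 fold changes that turned sign ran from -0.0061 to 0.127 for Mtor, -0.0242 to 0.211 for Rptor, -0.0747 to 0.0276 for Depdc5 and -0.0082 to 0.131 for Eif4ebp2, in each case between the fits without KO replicate 3 and without KO replicate 1. The cause was not tested.

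Leaving out 1 library at a time gave 0 to 1731 genes higher and 0 to 2231 lower, 0 to 1 members higher and 0 to 0 lower, and 0 to 9 pathway genes higher and 0 to 1 lower. The highest counts came without KO replicate 3. When KO replicate 1 was left out edgeR called 0 genes (2345 at an unadjusted p under 0.05), as it did without KO replicate 2 (2128), without WT replicate 1 (1555) and without WT replicate 3 (1572), while dropping WT replicate 2 left 37 higher and 139 lower. The Sesn1 share differed by -9.97 to -6.20 percentage points (KO minus WT) in these fits, the Sesn3 share by -10.1 to -6.41, the RagD share by 0.513 to 4.71 and the 4E-BP1 share by 0.232 to 1.48. With 3 libraries a group, a 2-fold change was often missed in the simulated data, where all genes shared the same dispersion.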
